A study of Homo sapiens with 12 samples.

Results

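The genes described are 8 members of the interleukin-6 family and its STAT3 pathway, out of 60708 features in the deposited tables. They were chosen by Ensembl identifier and not by a cut on their values, though with earlier results of these data known. The ligands were IL6 (ENSG00000136244.12), LIF (ENSG00000128342.5) and IL11 (ENSG00000095752.7), and the receptor chains IL6R (ENSG00000160712.13) and IL6ST (ENSG00000134352.20). The others were the kinase JAK1 (ENSG00000162434.13), the transcription factor STAT3 (ENSG00000168610.16) and the inhibitor SOCS3 (ENSG00000184557.4). All 8 passed the filter on low counts, which kept 24040 features. RNA immunoprecipitation sequencing was done in HK2, an established line of human kidney epithelial cells. Every culture was transfected with 10 µg of plasmid for human Arid5a carrying a FLAG tag, an RNA-binding protein known from mouse and human work to bind and stabilise Il6 mRNA. Cultures then received 200 ng/mL IL-17, or medium, over 3 h, and lysates were precipitated with anti-FLAG antibody or with mouse IgG1, the background control. This gave 4 groups of 3 libraries: FLAG IL-17, IgG IL-17, FLAG medium and IgG medium.

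Cytokines of this family signal through the shared receptor chain IL6ST, also called gp130. IL6 and IL11 first bind their own alpha receptors, IL6R and IL11RA, whereas LIF joins IL6ST to the LIF receptor. JAK1 and related kinases bound to IL6ST then phosphorylate STAT3, which enters the nucleus and switches on genes that include SOCS3. SOCS3 protein binds IL6ST and the kinase and shuts the signal off. IL-17 is known to induce IL6 in epithelial cells and fibroblasts, through NF-kappaB and C/EBP factors at the promoter and through slower decay of the mRNA.

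The question of the FLAG and IgG comparison is which RNAs were recovered with tagged Arid5a. The question of the IL-17 comparison is how the cytokine changed what was recovered with each antibody. All cultures were transfected with the plasmid, so no group served as a control with Arid5a at its natural level alone. How many cells took up the plasmid, and how much tagged protein they made, was not checked here. No input RNA was analysed here, so more of an mRNA in the cells and more of it bound cannot be told apart within a single antibody's libraries. In bulk lysates, fewer cells with an mRNA and less of it per cell cannot be told apart either. Identifiers were paired with names for the 8 genes alone, so epithelial markers of the line, other genes of the pathway and the transfected gene were not checked.

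Total estimated counts ran from 13653400 to 17723100 in FLAG IL-17, from 5365500 to 15837800 in IgG IL-17, from 2402390 to 7563480 in FLAG medium and from 746911 to 6118340 in IgG medium. IL-17 libraries were thus the deeper ones on the whole, and the part of depth in the IL-17 results was not tested. Correlations of log2 CPM between replicates ran from 0.960 to 0.968 in FLAG IL-17 and from 0.854 to 0.886 in IgG IL-17, against 0.552 to 0.780 in FLAG medium and 0.553 to 0.693 in IgG medium. Of the 12 libraries, 4 stood apart: IgG IL-17 replicate 1, FLAG medium replicate 1 and IgG medium replicate 2 held the most features at an equal depth of 740000 counts (23782 to 30318, against 10585 to 20003 in the others), and IgG medium replicate 1 was the shallowest. Several test results are also given without these 4 libraries. Shares, apparent lengths and correlations are given with them included, and the part of these libraries in them was not tested. The labels do not state whether the 3 libraries of a group are separate cultures, and p-values therefore reflect only the spread between these libraries, which may be technical.

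The genomic places are those of RefSeq on GRCh38.p14. IL6 lies on chromosome 7 from 22727200 to 22731998, LIF on chromosome 22 from 30240453 to 30246759 and IL11 on chromosome 19 from 55364382 to 55370463. IL6R lies on chromosome 1 from 154405343 to 154469450 and JAK1 on the same chromosome from 64833229 to 65067746. IL6ST lies on chromosome 5 from 55935095 to 55994963. STAT3 and SOCS3 are both on chromosome 17, from 42313324 to 42388442 and from 78356778 to 78360925. RefSeq places noncoding genes over the ends of several members: IL6-AS1 over IL6, LIF-AS1 and LIF-AS2 over LIF, IL6R-AS1 over IL6R and SOCS3-DT over SOCS3. The sources used here do not say whether counting used strand, so reads of these pairs cannot be told apart. RefSeq also lists the pseudogenes IL6STP1 and IL6RP1. Estimated counts of IL6ST were not whole in 8 of 12 libraries and those of IL6 in 2, as estimates are where reads match several features, and those of the other 6 genes were whole throughout.

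Promoters are shown for IL6 and IL11, the ligands with a RefSeq entry, since IL-17 acts on IL6 through its promoter and the windows of these genes were the ones with motif matches. Each is the 250 bases before the RefSeq start, 5′ to 3′ on the gene's own strand, with motif matches in capitals. IL6 is chr7:22726950-22727199 on the plus strand and IL11 is chr19:55370464-55370713 on the minus strand of GRCh38.p14.
IL6: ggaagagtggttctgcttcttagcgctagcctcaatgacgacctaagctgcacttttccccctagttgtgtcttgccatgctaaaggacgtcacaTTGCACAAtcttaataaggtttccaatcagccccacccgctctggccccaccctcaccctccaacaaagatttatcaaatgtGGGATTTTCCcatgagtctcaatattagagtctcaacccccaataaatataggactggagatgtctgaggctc
IL11: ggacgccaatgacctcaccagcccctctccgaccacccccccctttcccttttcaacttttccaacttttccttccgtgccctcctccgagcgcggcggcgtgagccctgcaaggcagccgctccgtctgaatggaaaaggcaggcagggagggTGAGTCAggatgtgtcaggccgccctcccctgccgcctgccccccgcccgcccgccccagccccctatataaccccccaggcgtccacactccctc

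The motifs searched, on both strands, were a kappaB motif of NF-kappaB, TTGCNNAA (C/EBP), TGANTCA (AP-1) and TTCNNNGAA (STAT). The IL6 window held GGGATTTTCC from 73 to 64 bases before the start and TTGCACAA from 155 to 148. The IL11 window held TGAGTCA from 96 to 90 bases before the start. The windows at the gene starts of IL6R, IL6ST, JAK1, STAT3 and SOCS3 held none of the 4 motifs, and LIF had no entry. RefSeq gives 3 windows for JAK1 and 2 for SOCS3, of which 1 each was searched. Of 34943 windows of the same length, 0.527% held the kappaB letters, 9.06% those of C/EBP, 6.59% those of AP-1 and 6.56% those of STAT. No matches overlapped. Binding to these letters was not measured here.

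Levels of different genes were compared as TPM, which divides by transcript length. JAK1 was the most abundant of the 8 in every group, at 12.7 ± 8.33 TPM in FLAG IL-17, 10.4 ± 7.49 TPM in IgG IL-17, 12.2 ± 8.26 TPM in FLAG medium and 16.2 ± 16.7 TPM in IgG medium (SD, n = 3 each). IL6 came next in both IL-17 groups, at 3.59 ± 2.17 TPM in FLAG IL-17 and 3.35 ± 1.53 TPM in IgG IL-17, and STAT3 was next in both medium groups, at 5.55 ± 4.14 TPM in FLAG medium and 6.05 ± 4.88 TPM in IgG medium (SD, n = 3 each). The standard deviations were about as large as the gaps, so IL6, STAT3, IL6ST and LIF, which averaged 1.95 to 3.59 TPM in FLAG IL-17, were not separable in order. At the low end were SOCS3 and IL6R, at 0.680 ± 0.205 and 0.240 ± 0.0872 TPM in FLAG IL-17 and at 1.51 ± 1.05 and 1.86 ± 0.237 TPM in IgG medium (SD, n = 3 each). All 8 mRNAs were thus recovered in precipitates of both antibodies, the receptor chain specific to IL6 at the lowest level with IL-17.

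The same gene was compared between libraries as CPM scaled with TMM factors, the values behind the edgeR test. IL6, the ligand that gives the family its name, had 28.1, 26.2 and 27.0 CPM in FLAG IL-17 replicates 1 to 3, against 15.0, 6.54 and 14.1 CPM in FLAG medium. Among IgG libraries it had 16.3, 23.4 and 28.1 CPM with IL-17, against 0, 6.56 and 17.9 CPM in medium. Every FLAG IL-17 library was above every FLAG medium library, whereas IgG IL-17 replicate 1 was below IgG medium replicate 3. The count of 0 in IgG medium replicate 1 allows up to 4.02 CPM by library size, from 3 counts and for counting error only, and the lowest value elsewhere on that scale was 8.73 CPM.

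LIF, a ligand that keeps mouse stem cells undifferentiated and acts on many epithelia, had 64.8, 59.2 and 59.6 CPM in FLAG IL-17, against 19.7, 27.9 and 31.9 CPM in FLAG medium. In IgG it had 48.8, 72.1 and 97.4 CPM with IL-17, against 46.6, 33.8 and 88.2 CPM in medium. The FLAG groups did not overlap and the IgG groups did. In medium, each FLAG library was also below each IgG library on this TMM-scaled measure.

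IL11, a ligand linked to tissue fibrosis, had 17.8, 18.4 and 29.9 CPM in FLAG IL-17, against 16.6, 22.3 and 25.1 CPM in FLAG medium. In IgG it had 11.4, 23.4 and 40.1 CPM with IL-17, against 67.8, 7.01 and 33.8 CPM in medium. Its groups overlapped in every comparison, and the highest value, in IgG medium replicate 1, came from 32 counts.

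Of the receptor chains, IL6R, which binds IL6 itself, had 9.82, 14.6 and 14.0 CPM in FLAG IL-17, 12.9, 7.89 and 13.5 CPM in IgG IL-17, 17.7, 10.3 and 2.30 CPM in FLAG medium, and 19.1, 21.4 and 6.41 CPM in IgG medium. IL6ST, the signal-transducing chain, had 153, 128 and 149 CPM in FLAG IL-17, 69.8, 117 and 133 CPM in IgG IL-17, 43.5, 87.6 and 130 CPM in FLAG medium, and 46.6, 58.6 and 141 CPM in IgG medium. Both chains overlapped between all pairs of groups compared, and for IL6ST the overlap in FLAG was between IL-17 replicate 2 and medium replicate 3.

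JAK1, the kinase, had 497, 392 and 440 CPM in FLAG IL-17, against 105, 277 and 237 CPM in FLAG medium. In IgG it had 248, 406 and 391 CPM with IL-17, against 151, 216 and 256 CPM in medium. FLAG groups did not overlap, and in IgG replicate 1 with IL-17 was below replicate 3 in medium. STAT3, the transcription factor, had 103, 97.2 and 119 CPM in FLAG IL-17, 60.8, 105 and 113 CPM in IgG IL-17, 22.7, 82.0 and 115 CPM in FLAG medium, and 44.5, 71.7 and 97.1 CPM in IgG medium, with overlap in every comparison.

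SOCS3, the feedback inhibitor, had 18.3, 21.5 and 27.2 CPM in FLAG IL-17, against 8.87, 11.8 and 3.94 CPM in FLAG medium. In IgG it had 13.9, 28.9 and 26.4 CPM with IL-17, against 48.8, 4.64 and 38.2 CPM in medium. The FLAG groups did not overlap, while the IgG medium libraries lay on both sides of those with IL-17. The lowest and highest of these values rest on 24 counts in FLAG medium replicate 3 and 23 counts in IgG medium replicate 1.

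**Figure D1:**
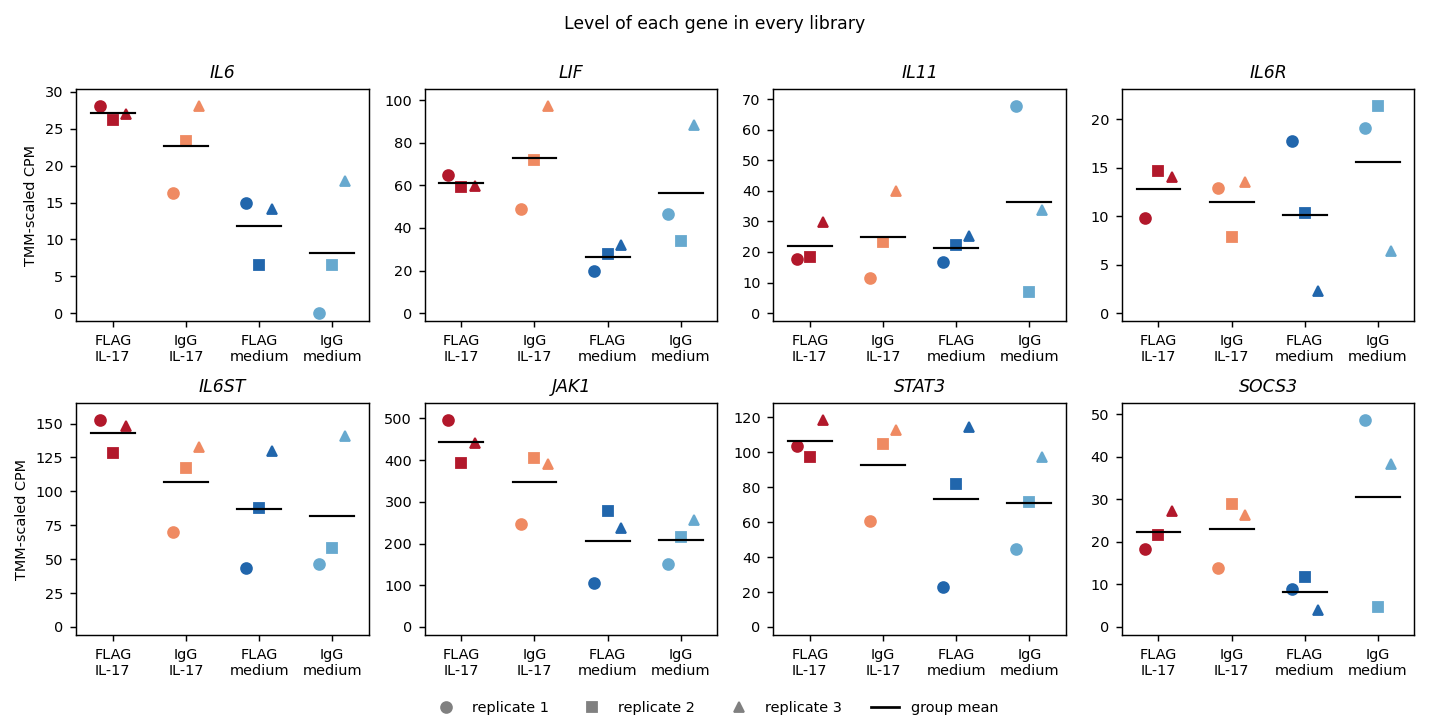
TMM-scaled CPM (y axis, from 0) of each of the 8 genes in the 12 libraries; each point is a library, its shape the replicate number, its colour the group, and the black line the mean of 3 libraries. IL6, LIF, JAK1 and SOCS3 in FLAG IL-17 lie above every FLAG medium library, as the 64.8, 59.2 and 59.6 CPM of LIF against 19.7, 27.9 and 31.9 CPM show.

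On TMM-scaled CPM, every FLAG precipitate with IL-17 had more IL6, LIF, JAK1 and SOCS3 than any FLAG precipitate in medium. None of the 8 genes met the threshold. By library size alone SOCS3 stayed apart, but IL6, LIF and JAK1 overlapped. FLAG IL-17 replicate 3 then had 16.5 CPM of IL6, 36.5 of LIF and 270 of JAK1. FLAG medium reached 22.5 CPM of IL6 in replicate 1, and 37.3 of LIF and 369 of JAK1 in replicate 2. The edgeR quasi-likelihood test, adjusted over all 24040 features, called 0 of 8 members at an adjusted p under 0.05, and called 0.225% of all features. At an unadjusted p under 0.05 it found LIF, JAK1 and SOCS3, 3 of 8, against 10.9% of all features. On TMM-scaled CPM the libraries did not overlap, with IL-17 higher, for 4 of 8 members and for 17.3% of all features. SOCS3 had the largest log2 fold change of the members, 1.44 ± 0.69 (SE, 95% interval 0.016 to 2.87, edgeR adjusted p = 0.457). LIF followed with 1.205 ± 0.52 (SE, 95% interval 0.13 to 2.27, edgeR adjusted p = 0.457), IL6 with 1.196 ± 0.70 (SE, 95% interval -0.24 to 2.64, edgeR adjusted p = 0.472) and JAK1 with 1.10 ± 0.53 (SE, 95% interval 0.0062 to 2.20, edgeR adjusted p = 0.457).

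The remaining members had smaller values. IL6ST had a log2 fold change of 0.72 ± 0.54 (SE), STAT3 of 0.54 ± 0.55, IL6R of 0.35 ± 0.76 and IL11 of 0.041 ± 0.65, with edgeR adjusted p between 0.539 and 0.978. The interval of IL11 ran from -1.29 to 1.37, so a change of over 2-fold either way was within it. All 8 values were above the median of all tested features, a log2 fold change of -0.29, and the median of the 8 was 0.91. IL11 lay below the median of all features without FLAG medium replicate 1 and without the 4 libraries that stood apart. It also did so with no filter and for the compared groups alone. Relative to the median of -0.29 with all libraries, IL6 stood at 1.49, LIF at 1.498, JAK1 at 1.40 and SOCS3 at 1.73. With RLE factors the median of all features was -0.89, and relative to it these genes stood at 1.40, 1.57, 1.54 and 1.71 in the same order. Their log2 fold changes themselves were smaller there, at 0.52, 0.69, 0.66 and 0.82. By library size alone the log2 fold changes were 0.58, 0.63, 0.54 and 0.69, and with the replicate block 1.25, 1.26, 1.23 and 1.41. In limma on log2(TPM + 1) these 4 genes stood at 0.20, -0.013, 0.48 and 0.30 relative to the median. On that scale LIF, IL11, IL6R and STAT3 lay below the median. DESeq2 also called 0 of 8 members in FLAG, against 4.28% of all features, with 2 of 8 at an unadjusted p under 0.05, against 22.2% of all features. Limma on log2(TPM + 1) called 0 of 8, against 0.025% of all features, with 1 of 8 at an unadjusted p under 0.05, against 9.36%. Without FLAG IL-17 replicate 1, the edgeR values of IL6, LIF and JAK1 were 0.68, 0.78 and 0.68, and without FLAG medium replicate 3 that of SOCS3 was 0.60.

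The direction depended on the scale of measurement. In limma on log2(TPM + 1), 7 of 8 members had a negative IL-17 value in FLAG, from -0.15 for SOCS3 to -1.35 for IL11, and JAK1 stood at 0.037, while the median of all features was -0.45. The TPM of IL6 show this directly: 5.89, 3.29 and 1.59 TPM in FLAG IL-17, against 8.61, 3.05 and 2.26 TPM in FLAG medium. Without the 4 libraries that stood apart, edgeR called IL6 at a log2 fold change of 1.41 ± 0.35 (SE, adjusted p = 0.0417) and LIF at 1.03 ± 0.24 (SE, adjusted p = 0.0296), and called 2.26% of all features, with 2 FLAG medium libraries left.

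**Figure D2:**
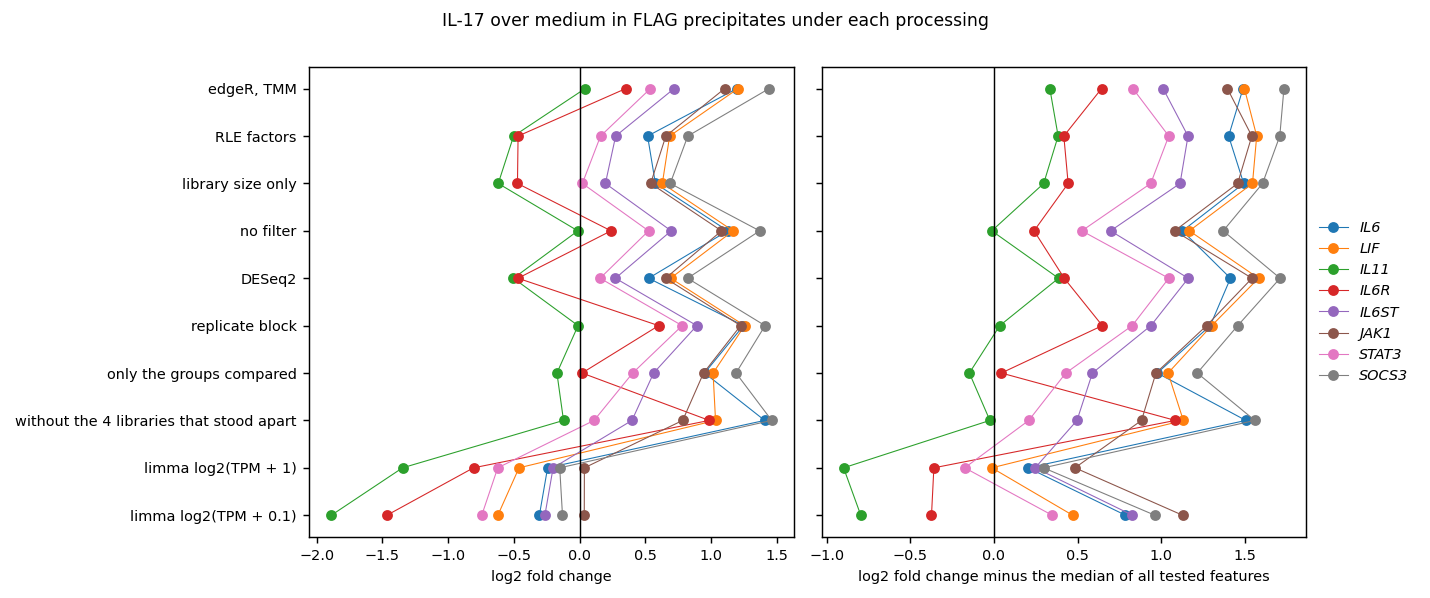
IL-17 over medium in FLAG precipitates for each of the 8 genes (coloured points joined by thin lines) under each processing (rows); left, the log2 fold change, right, the same minus the median of all tested features. IL6, LIF, JAK1 and SOCS3 lie right of 0 in every analysis of counts, and 7 of 8 genes lie left of 0 in the left panel for limma on log2(TPM + 1).

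In IgG precipitates the log2 fold change with IL-17 was largest for IL6, and no member was called. EdgeR called 0 of 8 members, against 0.0125% of all features, and found 0 of 8 at an unadjusted p under 0.05, against 5.57% of all features. The IL6 value was 1.29 ± 0.72 (SE, 95% interval -0.18 to 2.76, edgeR adjusted p = 0.919). JAK1 had 0.74 ± 0.53, LIF 0.37 ± 0.52, STAT3 0.37 ± 0.55 and IL6ST 0.36 ± 0.55 (SE). IL6R, SOCS3 and IL11 had negative log2 fold changes, of -0.43 ± 0.78, -0.34 ± 0.69 and -0.46 ± 0.67 (SE). No pair of IgG groups was free of overlap for any member. The median over the 8 genes was 0.36, against 0.18 over all features. That median depended on the libraries: it was 1.67 without IgG medium replicate 2 and 2.17 without the 4 libraries that stood apart, a fit in which all 8 members lay below it and IL6 lay at -1.52 relative to it. Leaving out IgG medium replicate 1 gave IL6 a value of 0.83, and leaving out replicate 3 of the same group gave 2.15. DESeq2 called 0 of 8, against 1.32% of all features, with 1 of 8 at p under 0.05 before adjustment, against 8.38%. Limma on log2(TPM + 1) called 0 of 8, against 0.0125% of all features, with 1 of 8 at p under 0.05 before adjustment, against 4.05%.

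As the mean of both antibodies, IL-17 gave IL6 a log2 fold change of 1.24 ± 0.50 (SE, 95% interval 0.21 to 2.27, edgeR adjusted p = 0.411). The same mean was 0.92 ± 0.38 for JAK1, 0.78 ± 0.37 for LIF and 0.55 ± 0.49 for SOCS3 (SE, edgeR adjusted p of 0.417, 0.466 and 0.650). On log2(TPM + 1) the mean for IL6 was 0.10, and those of JAK1, LIF and SOCS3 turned negative, to -0.11, -0.17 and -0.24. EdgeR called 0 of 8 members for this mean, against 0.395% of all features, and 3 of 8, IL6, JAK1 and LIF, had an unadjusted p under 0.05, against 10.5% of all features. DESeq2 called JAK1 at a log2 fold change of 0.61 ± 0.18 (SE, adjusted p = 0.0206) and 3.01% of all features, with 2 of 8 members at an unadjusted p under 0.05, against 16% of all features. Without FLAG medium replicate 3 the edgeR mean of SOCS3 was 0.11, and without IgG IL-17 replicate 3 that of LIF was 0.49. Without the 4 libraries that stood apart, edgeR called IL6 at 1.03 ± 0.30 (SE, adjusted p = 0.0394) and JAK1 at 0.77 ± 0.21 (SE, adjusted p = 0.0273), and 7.86% of all features, with IgG medium reduced to 1 library that is assumed to vary like the others. The median of all features in that fit was 0.80, against -0.070 with all libraries, and JAK1 lay below it.

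The next comparison was FLAG against IgG, the measure of recovery with tagged Arid5a. In medium, LIF and SOCS3 had lower CPM in FLAG than in IgG, and no member was called. The sign for LIF turned on the TPM scale, to 0.15 in limma on log2(TPM + 1). EdgeR called 0 of 8 members and 0% of all features, and found LIF and SOCS3 at an unadjusted p under 0.05, against 6.56% of all features. SOCS3 had a log2 fold change of -1.83 ± 0.72 (SE, 95% interval -3.30 to -0.36, edgeR adjusted p = 0.757). LIF had -1.09 ± 0.53 (SE, 95% interval -2.17 to -0.011, edgeR adjusted p = 0.757). On TMM-scaled CPM it was the single member whose libraries did not overlap, which held for 1.11% of all features in that direction. By library size alone its groups overlapped. IgG medium replicate 1 then had 29.45 CPM, from 22 counts, below the 29.55, 37.3 and 30.7 CPM of FLAG medium. The log2 fold change of LIF was -0.58 without IgG medium replicate 3, and that of SOCS3 was -1.21 without FLAG medium replicate 3. For SOCS3 the IgG medium libraries themselves ran from 4.64 to 48.8 CPM.

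IL6, the mRNA for which Arid5a binding is best known, had a FLAG over IgG value of 0.36 ± 0.71 in medium (SE, 95% interval -1.11 to 1.82, edgeR adjusted p = 1). IL11 had -0.68 ± 0.67 and IL6R -0.62 ± 0.78, while IL6ST, STAT3 and JAK1 stood at 0.070 ± 0.55, 0.025 ± 0.55 and -0.012 ± 0.53 (SE). DESeq2 called 0 of 8 members in medium, against 0.582% of all features, with 2 of 8 at an unadjusted p under 0.05, against 9.97%. Limma on log2(TPM + 1) called 0 of 8 and 0% of all features, with 0 of 8 at an unadjusted p under 0.05, against 4.75%. Without the 4 libraries that stood apart, edgeR called LIF at -1.41 ± 0.31 (SE, adjusted p = 0.0151) and SOCS3 at -2.10 ± 0.49 (SE, adjusted p = 0.0205), and 4.28% of all features, a fit in which IgG medium was replicate 3 alone. In that fit the median of all features was 1.60, against 0.20 with all libraries, all 8 members lay below it, and IL6 stood at -0.67, the opposite sign.

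With IL-17, FLAG and IgG libraries overlapped for all 8 genes. EdgeR called 0 of 8 members and 0% of all features, and 0 of 8 passed an unadjusted p under 0.05, against 2.81% of all features. The log2 fold changes were 0.26 ± 0.69 for IL6, -0.25 ± 0.51 for LIF, -0.18 ± 0.65 for IL11 and 0.17 ± 0.76 for IL6R. They were 0.42 ± 0.54 for IL6ST, 0.35 ± 0.53 for JAK1, 0.20 ± 0.55 for STAT3 and -0.046 ± 0.67 for SOCS3 (SE, edgeR adjusted p from 0.924 to 0.995 over the 8). The interval of IL6 ran from -1.15 to 1.67, which holds both no enrichment and a 2-fold one. It rests on a spread shared by all 4 groups, and replicates of the medium groups were less alike. A fit of the compared groups alone gave IL6 a value of 0.17 (edgeR adjusted p = 0.653). All 8 values lay above the median of all features, -0.33, with all 12 libraries. Without IgG IL-17 replicate 1 that median was -0.074, and LIF, IL11 and SOCS3 lay below it. DESeq2 called 0 of 8, against 0.0374% of all features, with 0 of 8 at an unadjusted p under 0.05, against 7.15%. Limma on log2(TPM + 1) called 0 of 8, against 0.00416% of all features, with 0 of 8 at an unadjusted p under 0.05, against 0.0582%.

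**Figure D3:**
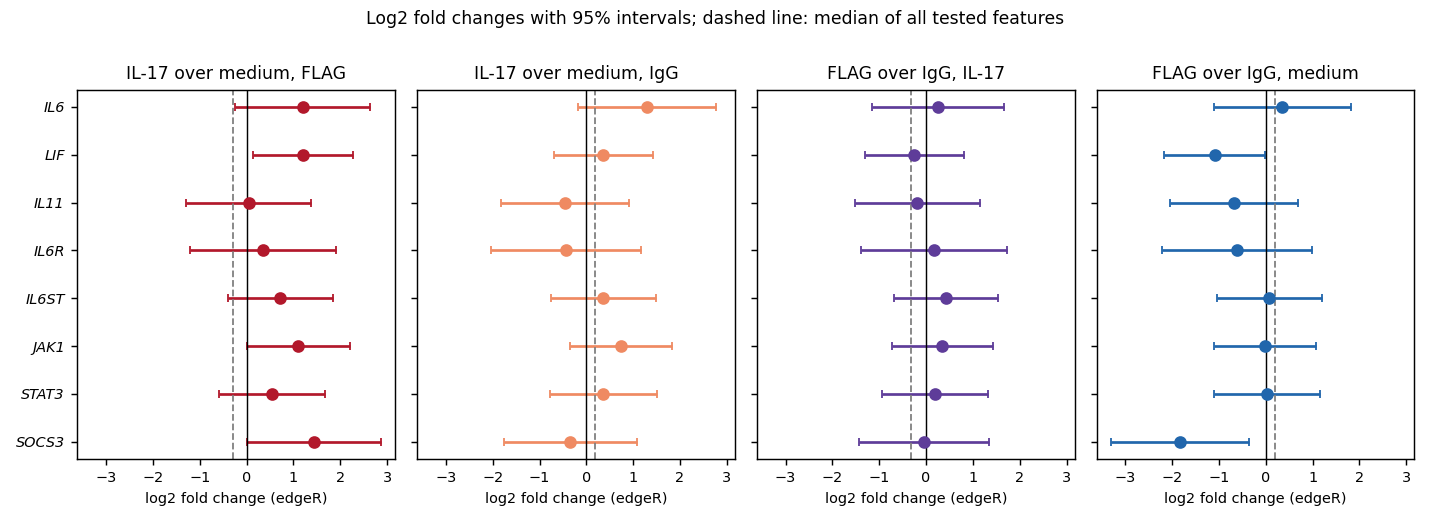
EdgeR log2 fold changes (x axis) of the 8 genes (rows) in 4 comparisons, with bars for 95% intervals, a solid line at 0 and a dashed line at the median of all 24040 tested features. The FLAG over IgG intervals with IL-17 all cross 0, and in medium those of LIF (-2.17 to -0.011) and SOCS3 (-3.30 to -0.36) do not, before adjustment.

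Over both treatments, edgeR called 0 of 8 members for FLAG over IgG and 0% of all features, with 0 of 8 at an unadjusted p under 0.05 against 4.14% of all features. DESeq2 called 0 of 8 as well, against 0.137% of all features, with 1 of 8 at an unadjusted p under 0.05, against 6.39%. Without the 4 libraries that stood apart, LIF was called at -0.93 ± 0.19 (SE, edgeR adjusted p = 0.0118) and SOCS3 at -1.19 ± 0.30 (SE, edgeR adjusted p = 0.0358), with 3.56% of all features called. IgG medium was again 1 library, its spread taken from the other groups, and for SOCS3 this left the library at 38.2 CPM and dropped those at 48.8 and 4.64 CPM. The test of whether enrichment changed with IL-17 called 0 of 8 members and 0% of all features, with 0 of 8 at an unadjusted p under 0.05 against 7.35% of all features, and DESeq2 also gave 0 of 8 by either measure, against 0.449% of all features adjusted and 12% unadjusted. SOCS3 had the largest such difference, 1.78 ± 0.98 (SE, 95% interval -0.22 to 3.79, edgeR adjusted p = 0.701), and LIF had 0.84 ± 0.73 (SE, edgeR adjusted p = 0.800). Under the 8 alternatives other than leaving out 1 library, the SOCS3 difference ran from 0.18 to 1.80. The IL-17 effects in FLAG and in IgG were therefore not shown to differ for any member. Since the comparisons of one antibody or treatment share libraries with each other, their values are not independent.

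Scaling between libraries cancels when each gene is given as a share of the summed estimated counts of the 8 genes. JAK1 took the largest share in every library, 55.7%, 51.8% and 50.9% in FLAG IL-17, against 42.1%, 52.7% and 42.4% in FLAG medium. LIF took 7.26%, 7.81% and 6.88% in FLAG IL-17, against 10.1%, 9.20% and 11.6% in IgG IL-17. In medium it took 7.90%, 5.32% and 5.70% in FLAG, against 11%, 8.07% and 13.0% in IgG. LIF was thus a smaller part of the set in each of the 6 FLAG libraries than in any of the 6 IgG libraries, a pattern picked out after the values were seen and given with no test.

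IL6 took 3.15%, 3.46% and 3.12% of the set in FLAG IL-17, against 6.01%, 1.25% and 2.53% in FLAG medium. In IgG it took 3.38%, 2.98% and 3.34% with IL-17, against 0%, 1.56% and 2.64% in medium. The share of IL6 with IL-17 lay between 2.98% and 3.46% in all 6 libraries of both antibodies, while the medium libraries lay on both sides of that range in FLAG and below it in IgG. IL11 took 1.99%, 2.42% and 3.46% in FLAG IL-17, against 6.68%, 4.24% and 4.50% in FLAG medium, with no overlap. Its CPM did overlap, and this gap in shares was also picked out after the values were seen and given with no test. SOCS3 took 2.05%, 2.84% and 3.15% in FLAG IL-17, against 3.56%, 2.24% and 0.705% in FLAG medium, so its share overlapped although its CPM did not. These shares depend on each other, because they sum to the whole, and on gene length.

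**Figure D4:**
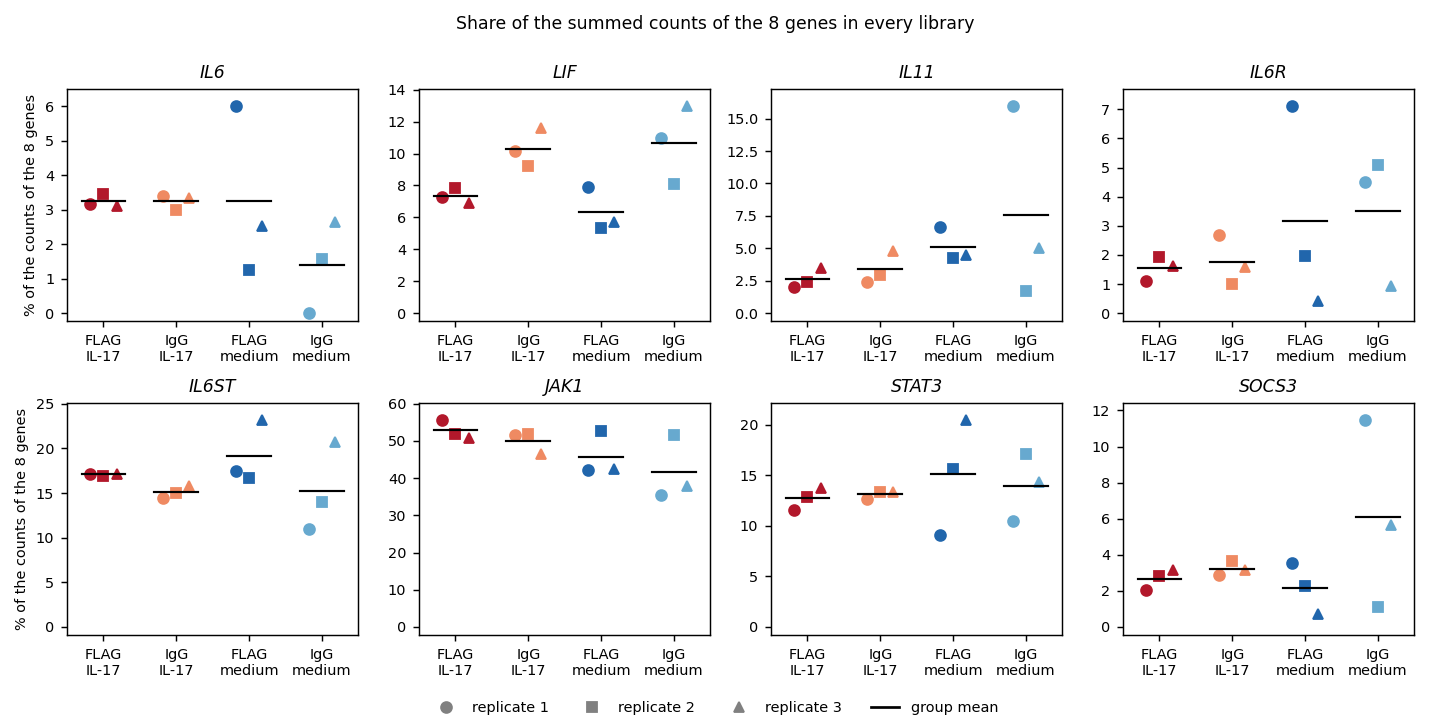
Share of the summed estimated counts of the 8 genes (y axis, percent, from 0) taken by each gene in the 12 libraries; shapes mark replicates, colours groups and black lines means of 3 libraries. LIF lies between 5.32% and 7.90% in the 6 FLAG libraries and between 8.07% and 13.0% in the 6 IgG libraries.

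The ratio of estimated count to TPM, divided by its median over 2658 features with enough counts in all libraries, gives an apparent length that should stay the same for a gene read along the same transcripts. It varied least for SOCS3, from 1.19 to 1.78, followed by IL6, from 0.270 to 0.484, and STAT3, from 1.12 to 2.06. For IL6R it ran from 0.366 in IgG medium replicate 3 to 3.51 in IgG medium replicate 2, a 9.59-fold range over the 7 libraries with at least 20 counts and 0.2 TPM. For LIF the apparent length was 1.68, 0.999 and 1.37 in IgG IL-17, against 2.57, 2.31 and 2.33 in IgG medium, with no overlap. The part of this in the TPM values of IL6R and LIF was not tested.

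**Figure D5:**
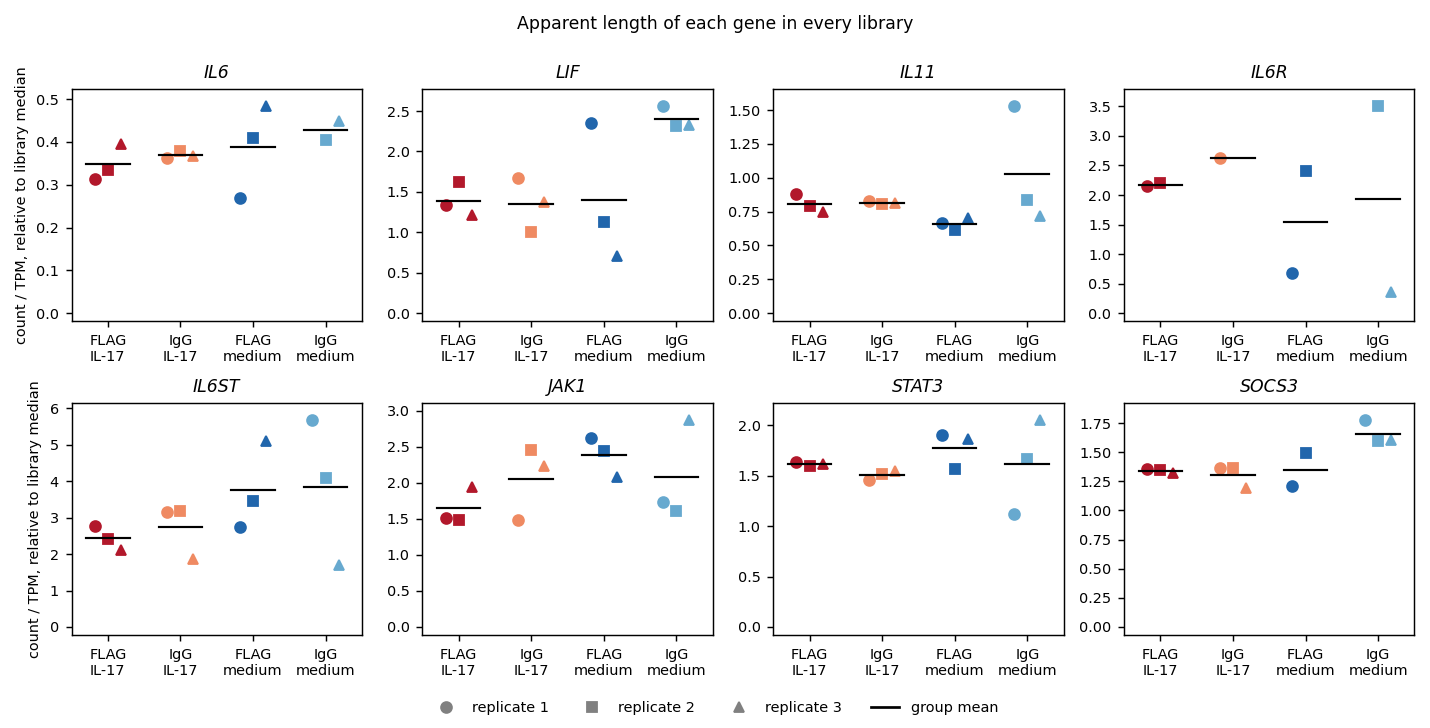
Apparent length (estimated count over TPM, relative to the library median, y axis from 0) of each gene in the 12 libraries; points are libraries with at least 20 counts and 0.2 TPM, shapes mark replicates and black lines group means. SOCS3 stays between 1.19 and 1.78, while IL6R spans 0.366 to 3.51.

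Across the 12 libraries, the pairs of members with the highest correlation of log2(CPM + 1) were signalling genes. Pearson's r was 0.903 for IL6ST with STAT3 (Spearman's rho 0.811), 0.878 for JAK1 with STAT3 (rho 0.706) and 0.867 for IL6ST with JAK1 (rho 0.797). IL6 correlated with IL6ST at r = 0.695 (rho 0.741) and with its own receptor IL6R at -0.295 (rho -0.231). The order was another on log2(TPM + 1): JAK1 with STAT3 had r = 0.874 (rho 0.827), LIF with STAT3 0.872 (rho 0.972), IL6ST with STAT3 0.666 (rho 0.748) and IL6ST with JAK1 0.608 (rho 0.764), and IL6 with IL6R turned positive at 0.197 (rho 0.458). Of 12003 other features with a mean of at least 5 CPM, those most like IL6 were ENSG00000198816.7 (r = 0.979) and ENSG00000040487.13 (r = 0.979), and those most like STAT3 were ENSG00000134318.14 (r = 0.982) and ENSG00000129351.17 (r = 0.981). The files do not pair these identifiers with names. The 12 points share groups, depth and scaling factors, so these correlations describe the libraries and carry no test.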

How the data were processed

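RNA precipitated with anti-FLAG or mouse IgG1 was measured in 12 libraries made with a low-input cDNA kit, per the labels' protocols. The deposited tables hold estimated counts and, in a table named for FPKM, TPM by the authors, since all columns have the same total. The submitters' processing notes name RSEM 1.3.1, STAR 2.7.9, R 4.2.0, DESeq2 1.36.0 and build GRCh38, without roles.

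Counts were rounded, and features that passed filterByExpr at a minimum of 10 were fitted by edgeR 4.0.16 (R 4.3.3, TMM factors, quasi-likelihood F test), with 4 groups in 1 model and 7 contrasts. P-values were adjusted by Benjamini-Hochberg over 24040 features. The 4 groups share 1 estimate of spread for each feature, so an interval does not rest on the spread of the compared groups alone. The common dispersion over all features was 0.953. Of 18 pairs of same-numbered libraries, 9 had deviations from their group means correlated above 0.1 (range -0.14 to 0.468). Pairs of different numbers were not set beside them, so this does not settle whether the numbers pair libraries. The main fit did not pair them. Alternatives were other scalings, no filter, DESeq2 1.42.0, log2(TPM + 1) or log2(TPM + 0.1) in limma 3.58.1, a replicate block, fits of the compared groups alone and leaving out libraries. The fit was tested on simulated data with a smaller spread, equal in every group. That test therefore gives no error rate or power for these libraries.

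The 8 members, the comparisons and the named genes (all 8, and the 2 features most correlated with IL6 and with STAT3) were chosen with earlier results of these data known. A list of other pathway genes and one of cell markers, given by symbol, were not used here, because identifiers were not paired with symbols. Promoter sequences came from RefSeq (GRCh38.p14), with entries matched by symbol for 7 of 8 members. Depth ran from 746911 to 17723100 counts, and 3 counts, the limit a count of 0 allows, are 4.02 CPM at the lowest depth.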

Additional observations from a re-analysis of the deposited data

How the results depend on the processing

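EdgeR on TMM-scaled counts called 0 members in every comparison, and so did every alternative except DESeq2 (1 for the mean IL-17 effect, JAK1) and the fit without the 4 libraries that stood apart, an alternative added with the data seen (2 for FLAG over IgG in medium, 2 for its mean, 2 for IL-17 in FLAG and 2 for the mean IL-17 effect). Leaving out any 1 library called 0 members in each comparison. Of 336 member fold changes under the alternatives other than leaving out 1 library, and without the FLAG over IgG mean (2 of the calls above), 265 kept their sign, 71 changed it and 7 passed the threshold. They cover every member in the comparisons of 2 groups. For the mean IL-17 effect they cover IL6, LIF, JAK1 and SOCS3 alone, and for the change of enrichment LIF and SOCS3. Over all features the counts of calls moved more: 54 for IL-17 in FLAG by edgeR, against 5 with RLE factors, 136 with the replicate block and 1029 with DESeq2, and 95 for the mean IL-17 effect, against 723 with DESeq2 and 2268 without the 4 libraries. Counts per library ran from 9 to 189 for IL6R, from 23 to 332 for SOCS3 and from 71 to 9012 for JAK1. The cause of each change was not tested.

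Changed signs of log2 fold changes were as follows. For FLAG over IgG in medium, they were STAT3 -0.018 (RLE), -0.026 (DESeq2) and -0.075 (replicate block); JAK1 0.17 (library size only), 0.039 (no filter) and 0.19 (compared groups alone); LIF 0.15, IL11 0.47, IL6ST -0.038 and STAT3 -0.044 on log2(TPM + 1); LIF 0.26, IL11 0.61 and STAT3 -0.029 on log2(TPM + 0.1); and IL6 -0.67, IL6R 0.15, IL6ST -0.23 and JAK1 0.16 without the 4 libraries. For FLAG over IgG with IL-17, they were IL6 -0.016, IL6R -0.18 and STAT3 -0.073 (RLE), IL6 -0.016, IL6R -0.18 and STAT3 -0.074 (DESeq2), IL6R -0.23 and STAT3 -0.036 (library size only), IL6R -0.032 and STAT3 -0.18 on log2(TPM + 1), IL6R -0.020 and STAT3 -0.24 on log2(TPM + 0.1), and STAT3 -0.013 without the 4 libraries.

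For IL-17 in FLAG, IL11 was -0.50 and IL6R -0.47 with both RLE and DESeq2, IL11 -0.62 and IL6R -0.47 by library size, and IL11 -0.013 with no filter, -0.011 with the replicate block, -0.17 for the compared groups alone and -0.12 without the 4 libraries. The log2(TPM + 1) values were IL6 -0.24, LIF -0.46, IL11 -1.35, IL6R -0.81, IL6ST -0.20, STAT3 -0.62 and SOCS3 -0.15, and those on log2(TPM + 0.1) were IL6 -0.31, LIF -0.62, IL11 -1.89, IL6R -1.46, IL6ST -0.26, STAT3 -0.74 and SOCS3 -0.13. For IL-17 in IgG, IL6ST, JAK1 and STAT3 were -0.40, -0.27 and -0.49 on log2(TPM + 1) and -0.21, -0.26 and -0.53 on log2(TPM + 0.1), and IL11, IL6R and IL6ST were 0.034, 0.86 and -0.043 without the 4 libraries. The mean IL-17 effect was followed for IL6, LIF, JAK1 and SOCS3 alone, and the change of enrichment for LIF and SOCS3 alone. Signs of the other members were not compared there. For the mean IL-17 effect, LIF, JAK1 and SOCS3 were -0.17, -0.11 and -0.24 on log2(TPM + 1) and -0.18, -0.11 and -0.32 on log2(TPM + 0.1). The change of enrichment for LIF was -0.57 and -0.88 on these scales. The replicate block called 0 members in every comparison and changed no call of a member.

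Leaving out 1 library at a time gave, for FLAG over IgG in medium, ranges of -0.22 to 0.31 for JAK1, -0.36 to 0.46 for STAT3, -1.32 to 0.082 for IL6R, -0.24 to 0.67 for IL6ST, -0.14 to 1.31 for IL6, -1.26 to -0.58 for LIF and -2.22 to -1.21 for SOCS3. With IL-17 they were -0.31 to 0.27 for IL6R, -0.049 to 0.27 for STAT3, -0.59 to 0.069 for IL11 and -0.37 to 0.027 for SOCS3. For IL-17 in FLAG they were -0.61 to 0.12 for IL11 and -0.75 to 0.99 for IL6R, while IL6 kept 0.68 to 1.39 and SOCS3 0.60 to 1.64. For IL-17 in IgG they were -0.98 to 0.23 for IL11, -0.82 to 0.038 for SOCS3, -0.91 to 0.044 for IL6R and 0.83 to 2.15 for IL6.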
